A study of Mus musculus with 6 samples.

Results

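The genes described here make cholesterol and fatty acids or set how much of them a cell makes. They were chosen by name: 16 enzymes of the sterol pathway, 6 regulators around the sterol regulatory element binding proteins (SREBPs) and 11 enzymes of fatty acid synthesis, elongation and desaturation. Of these 33 names 32 had a row among the 17997 genes of the deposited table, and all 32 passed the filter on low values. Hmgcs1 was not analysed here for expression.

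Cholesterol is built from acetyl-CoA through mevalonate, isoprenoid pyrophosphates, squalene and lanosterol. When sterols in the membrane of the endoplasmic reticulum fall, SCAP escorts the SREBP precursors to the Golgi, where they are cut, and the released factors switch on the enzymes of the pathway together. INSIG proteins hold SCAP back when sterols are plentiful. The product of Srebf2 acts mainly on sterol genes and that of Srebf1 mainly on fatty acid genes. Dividing haematopoietic cells need both lipids for new membrane, and the mevalonate branch also supplies the isoprenoid groups that anchor small GTPases.

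RNA was measured in long-term haematopoietic stem cells (LT-HSCs), the rare marrow cells that sustain blood formation, sorted from C57BL/6 mice of 8 to 11 weeks. The Mx group (genotype MxCRE) was the reference control. MxCRE is a Cre recombinase driven by the interferon-inducible Mx promoter, which acts in many tissues. The Flt3ITD group carried Flt3-ITD, an internal tandem duplication in a cytokine receptor. The NPMc_Flt3ITD group carried NPMc+ and Flt3-ITD, NPMc+ being the nucleophosmin mutant that stays in the cytoplasm. Each group had 2 libraries, biological replicates per the series design text, and mice with NPMc+ but not Flt3-ITD were not analysed here. Whether the mutant groups also carried the Cre, whether it was induced and whether animals were pooled is not stated in the labels, and these limit what a contrast with Mx compares.

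The libraries held 15618802 to 37038893 reads, so 1 read was worth 0.0289 to 0.0657 CPM. All 13 genes of the list used to describe LT-HSCs, such as Procr, Slamf1 and Mecom, were above 0 in every library. Their summed level was 2480 and 2497 CPM for Mx, 1407 and 1550 for Flt3ITD and 1947 and 1788 for NPMc_Flt3ITD. These sums include Cd34, at 329 and 313 CPM for Mx, 364 and 411 for Flt3ITD and 468 and 576 for NPMc_Flt3ITD. Cd34 was the only gene of the list higher in both mutant groups than in Mx. The sums thus mix opposite directions and do not measure LT-HSC identity. Flt3ITD also stood apart in cell cycle and erythroid genes. All 12 G2/M markers were higher in both of its libraries than in both Mx libraries. So were all 13 G1/S markers and 8 of 10 tested erythroid markers, against 26.6% of all tested genes. At an adjusted limma p under 0.05, 6 G2/M, 4 G1/S and 5 erythroid markers passed as higher. The summed neutrophil markers differed between replicates, with 216 and 77.9 CPM in the Mx pair, 17.7 and 634 in the Flt3ITD pair and 91.6 and 527 in the NPMc_Flt3ITD pair. Of the adipocyte and stromal markers Pecam1, which blood and endothelial cells also express, was at 60.1 to 95.5 CPM, the other 10 listed summed to 7.75 to 33.6 CPM, and the adipocyte markers Adipoq, Plin1, Cfd and Fabp4 reached at most 1.01 CPM in any library. Xist, the X-inactivation transcript, and the Y-linked Ddx3y were both above 0 in every library. Xist was higher in both Mx libraries than in any mutant library. Ddx3y was lower in both, at 20.4 and 24.8 CPM for Mx, 63.6 and 32.8 for Flt3ITD and 61.1 and 46.9 for NPMc_Flt3ITD. The part of the sex of the mice in the contrasts with Mx was not tested.

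Short sequence elements were searched in the promoters of these genes. SREBPs bind sterol regulatory elements next to sites for the CCAAT-binding factor NF-Y and for Sp1, which binds GC boxes. RefSeq windows of 300 bases (GRCm38.p6, 250 before the annotated start and 50 from it on) were at hand for 26 of the 33 names. Letters were searched on both strands, in the first listed window of each gene. Only the patterns given below counted, so an element with other letters would be missed. Dhcr7, Srebf1 and Insig2 had 3 windows and Pmvk, Scap and Elovl1 had 2, and their further windows are not described. CCAAT occurred in 21 of the 26 windows, against 37.9% of all 26994 windows and 39.2% of the 9412 windows of tested genes. By branch it occurred in 12 of 13 sterol enzymes, 4 of 5 regulators and 5 of 8 fatty acid enzymes. The 41 matches lay between positions -237 and 37, with a median of -59, and 30 of them lay within the 150 bases before the start. The GC box GGGCGG occurred in 19 windows, against 35.9% of all and 63.9% of tested windows. The E-box CACGTG occurred in 5, against 7.24% and 10.4%. The core of the sterol regulatory element, TCACNCCAC, occurred in Hmgcs1 alone, against 1.22% and 1.01%, and the looser TCACNCNAC in Hmgcs1 and Nsdhl, against 2.78% and 2.65%. The windows of Lss, Ebp and Fasn are given because these 3 genes had an unadjusted limma p under 0.01 against Mx. Fdps did too and had no window. CCAAT and its reverse complement ATTGG are in capitals, and the last 50 bases of each window begin at the annotated start.
Lss: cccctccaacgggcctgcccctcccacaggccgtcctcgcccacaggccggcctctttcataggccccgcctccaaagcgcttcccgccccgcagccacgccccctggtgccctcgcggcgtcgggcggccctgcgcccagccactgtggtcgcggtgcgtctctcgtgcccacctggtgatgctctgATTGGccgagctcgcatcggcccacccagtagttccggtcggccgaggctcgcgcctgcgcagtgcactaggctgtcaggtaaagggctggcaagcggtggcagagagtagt
Ebp: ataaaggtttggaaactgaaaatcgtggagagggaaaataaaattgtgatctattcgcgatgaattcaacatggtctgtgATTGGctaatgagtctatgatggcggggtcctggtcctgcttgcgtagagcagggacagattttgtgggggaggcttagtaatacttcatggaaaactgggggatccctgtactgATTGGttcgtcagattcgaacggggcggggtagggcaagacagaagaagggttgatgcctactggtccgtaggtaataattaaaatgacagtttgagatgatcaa
Fasn: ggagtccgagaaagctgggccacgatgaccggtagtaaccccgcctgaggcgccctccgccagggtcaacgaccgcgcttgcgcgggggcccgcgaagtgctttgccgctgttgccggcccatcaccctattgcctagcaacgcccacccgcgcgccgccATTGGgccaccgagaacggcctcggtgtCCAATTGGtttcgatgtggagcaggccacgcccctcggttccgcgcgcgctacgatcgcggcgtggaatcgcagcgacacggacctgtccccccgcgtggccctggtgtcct
The Lss window is chr10:76531355-76531654 on the plus strand, with 1 match at -62. That of Ebp is chrX:8193463-8193762 on the minus strand, with matches at -170 and -55. That of Fasn is chr11:120824498-120824797 on the minus strand, where matches on opposite strands at -62 and -59 overlap and another lies at -90.

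**Figure D1:**
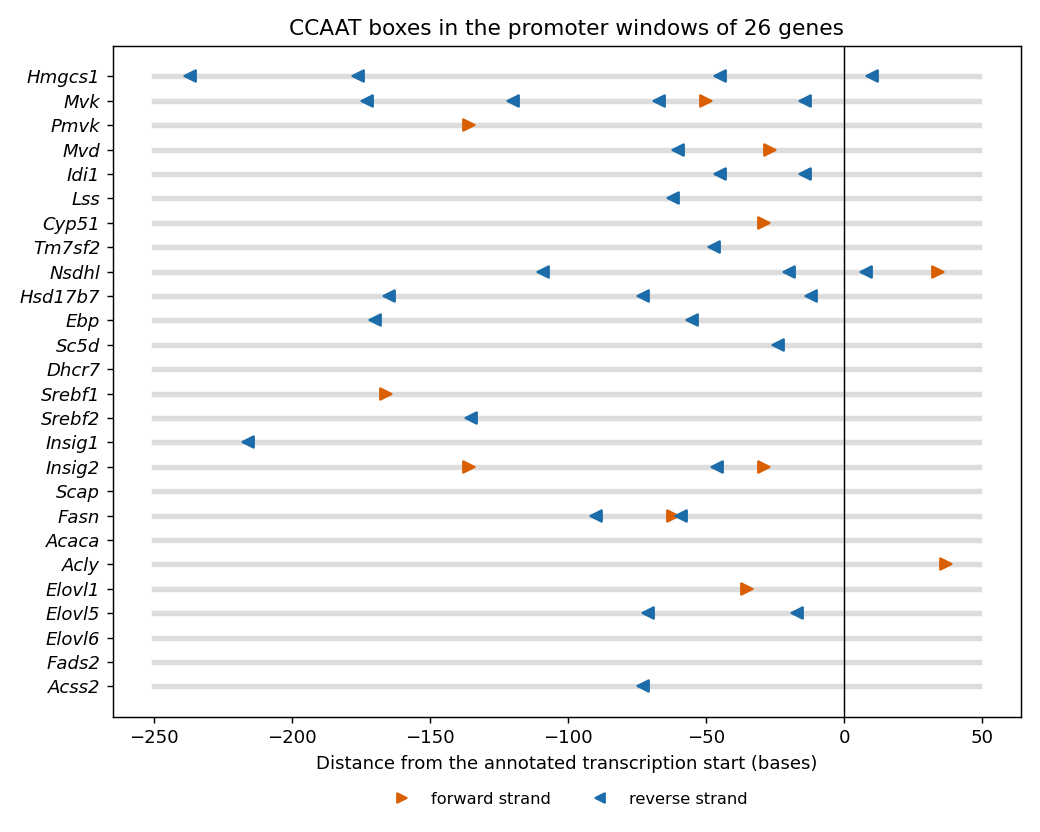
Position of each CCAAT match (first base of the match, in bases from the annotated start at 0) in the promoter windows of 26 genes, with the strand given by the direction and colour of the marker. Most of the 41 matches lie in the 150 bases before the start. Dhcr7, Scap, Acaca, Elovl6 and Fads2 have none in the window used, the first listed for each gene.

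Most sterol enzymes had positive fold changes against Mx in both mutant groups, and only Fdps, in Flt3ITD, passed the test. The median log2 fold change of the 15 sterol enzymes was 0.40 in Flt3ITD against Mx and 0.36 in NPMc_Flt3ITD against Mx, beside 0.01 over all 12657 tested genes in each. The 6 regulators had medians of -0.09 and 0.21, and the 11 fatty acid enzymes 0.03 and 0.15. Against Mx, 1 of the 32 genes passed an adjusted p of 0.05 in Flt3ITD, where it was higher, while 2.12% of all tested genes passed as higher and 2.43% as lower. None of the 32 passed in NPMc_Flt3ITD, where 0.514% and 0.656% of tested genes did, and none in NPMc_Flt3ITD against Flt3ITD, where 0.277% and 0.901% did (limma). At an unadjusted p under 0.05 the 32 genes gave 6 higher and 1 lower in Flt3ITD against Mx, 7 higher and 2 lower in NPMc_Flt3ITD against Mx, and 3 higher and 0 lower between the mutant groups, beside 23.6%, 12.4% and 18.8% of tested genes in either direction. DESeq2 called 2, 2 and 0 of the 32 in these comparisons and edgeR none. With replicate number as a block 5, 4 and 1 passed, while 18.5%, 5.44% and 12% of all tested genes then passed in either direction. The block rests on a pairing seen in these same values, since no label explains the numbers. Its p values, here and below, are therefore not separate evidence. Both comparisons against Mx share the Mx libraries, so their values are not independent of each other. All fold changes are of log2(CPM + 1), where genes of low level change less than their CPM does, and a range after one is its 95% confidence interval from limma.

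**Figure D2:**
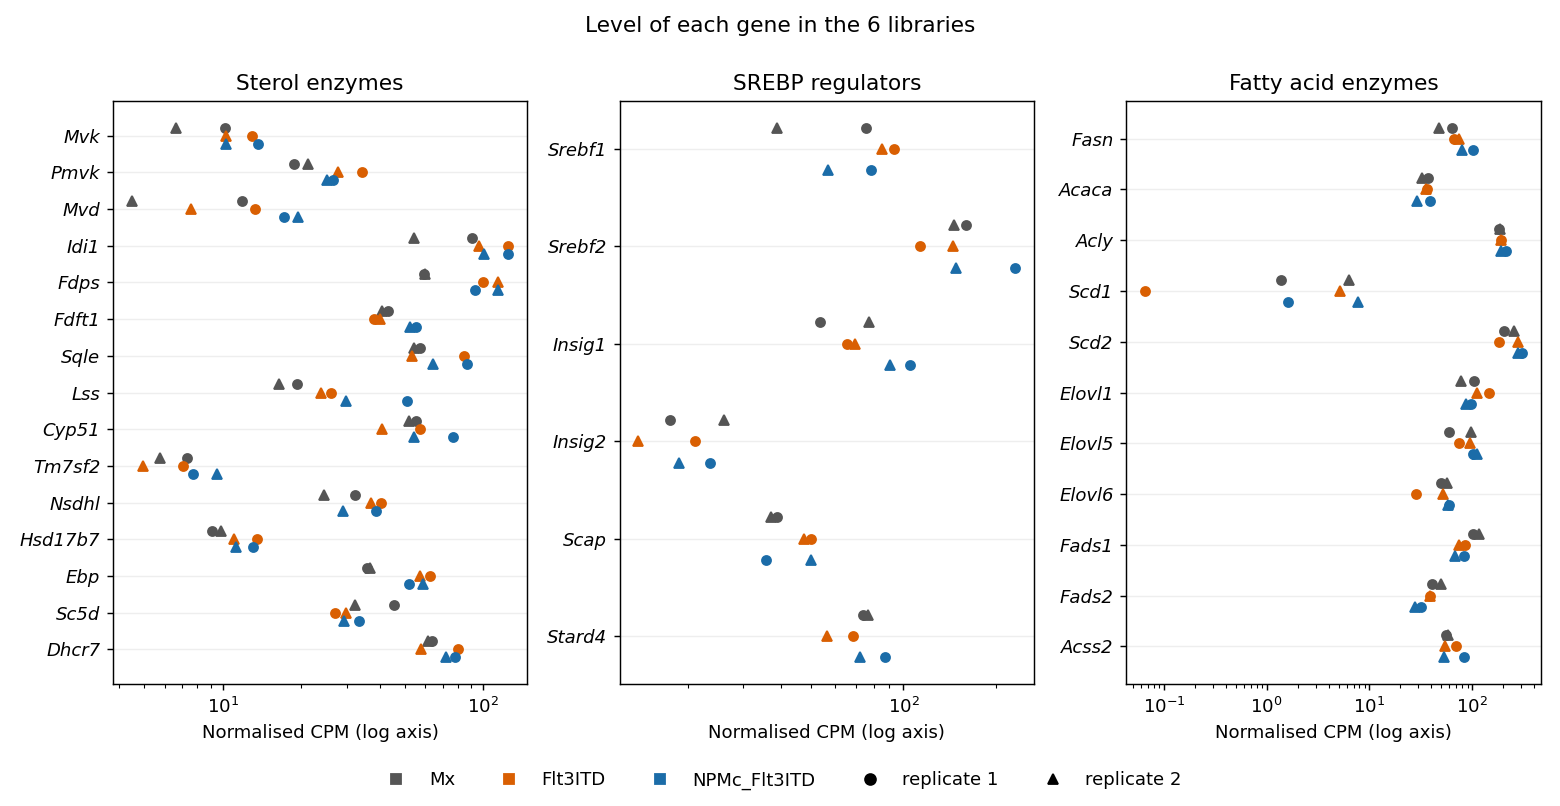
Normalised CPM (log axis) of each gene in the 6 libraries, by group (colour) and replicate (shape), with the branches in separate panels. Mvk, Pmvk, Idi1, Fdps, Lss, Hsd17b7, Ebp, Fasn and Acly are higher in all 4 mutant libraries than in both Mx libraries. Fads1 and Fads2 are lower in all 4, and Scd1 spreads from 0.0657 to 7.80 CPM. On library totals Mvk, Hsd17b7 and Acly overlap Mx in both mutant groups. The share of all tested genes separated from Mx in all 4 mutant libraries was not counted.

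In the mevalonate part of the pathway, Fdps was the gene that passed the test. Fdps encodes farnesyl diphosphate synthase, which makes the branch point intermediate for sterols and protein prenylation. It stood at 59.0 and 59.6 CPM in Mx libraries, 100.2 and 114 in Flt3ITD libraries and 92.9 and 114 in NPMc_Flt3ITD libraries. All 4 mutant libraries lay above both Mx libraries, which were nearly equal. Fdps rose 1.81-fold in mean CPM in Flt3ITD against Mx (log2 fold change 0.84, 0.43 to 1.25, adjusted p = 0.0403). In NPMc_Flt3ITD the mean was 1.75 times that of Mx (0.79, 0.38 to 1.19, adjusted p = 0.0879, and 0.0109 with the replicate block). The mutant groups did not differ detectably in Fdps (-0.05, -0.46 to 0.35). The call in Flt3ITD held with the replicate block (adjusted p = 0.00385) and DESeq2 (0.00151) and was lost with library totals as the scale (0.0585), with only the 2 groups compared (0.0585), with no filter (0.0825), with edgeR (0.0583) and when any of the 6 libraries was left out (0.0575 to 0.170, log2 fold change 0.75 to 0.94). Of the 50-base stretches of the annotated transcripts of Fdps, 26.2% also occur in 8 other annotated genes, so reads may be shared. The most are shared with Gm43738, annotated as protein coding, followed by processed pseudogenes.

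Idi1, which interconverts the isopentenyl and dimethylallyl pyrophosphates that Fdps joins, showed the same order with wider spread. Its level was 90.8 and 54.3 CPM for Mx, 125 and 96.1 for Flt3ITD and 124 and 100.7 for NPMc_Flt3ITD. Each mutant library exceeded both Mx libraries, and replicate 1 was above replicate 2 in every group. The log2 fold changes were 0.63 (0.04 to 1.23, adjusted p = 0.188) in Flt3ITD and 0.66 (0.07 to 1.26, adjusted p = 0.336) in NPMc_Flt3ITD, and with the replicate block the adjusted p values were 0.0159 and 0.0289. Pseudogene copies share 17.7% of the 50-base stretches of Idi1. Upstream of it, Mvk, the mevalonate kinase, read 10.2 and 6.64 CPM in the Mx pair, 12.999 and 10.3 in the Flt3ITD pair and 13.7 and 10.3 in the NPMc_Flt3ITD pair. The lowest mutant values lay just above the highest Mx value, so the groups were separated but adjacent. Pmvk, the next kinase, stood at 18.7 and 21.2 CPM in Mx libraries, 34.1 and 27.7 in Flt3ITD libraries and 26.6 and 25.1 in NPMc_Flt3ITD libraries, and its fold change in Flt3ITD was 0.60 (0.06 to 1.14, adjusted p = 0.172). Mvd, which decarboxylates mevalonate pyrophosphate, was the most uneven enzyme of the branch, with 11.8 and 4.48 CPM for Mx, 13.3 and 7.57 for Flt3ITD and 17.2 and 19.4 for NPMc_Flt3ITD. Only the NPMc_Flt3ITD libraries lay apart from both Mx libraries, with a log2 fold change of 1.20 (0.17 to 2.23, adjusted p = 0.306), the largest of the 32 genes in that comparison. Without Mx replicate 1 or 2 that value became 1.82 or 0.59.

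After the branch point the enzymes behaved less alike. Fdft1, squalene synthase, takes the first step committed to sterols and stood at 43.1 and 41.0 CPM in the Mx pair, 38.0 and 40.2 in the Flt3ITD pair and 55.3 and 52.4 in the NPMc_Flt3ITD pair. Its Flt3ITD libraries were just below those of Mx (log2 fold change -0.10, -0.53 to 0.32, adjusted p = 0.780) and its NPMc_Flt3ITD libraries above them (0.35, -0.07 to 0.77, adjusted p = 0.524), and the contrast between the mutant groups was 0.45 (0.03 to 0.87, adjusted p = 0.236). Sqle, squalene epoxidase and a known flux-controlling step, read 57.2 and 54.4 CPM in Mx libraries, 84.6 and 53.5 in Flt3ITD libraries and 86.6 and 64.1 in NPMc_Flt3ITD libraries. In Flt3ITD its replicates fell on either side of Mx, so the groups overlapped there. Lss cyclises squalene epoxide to lanosterol, the first sterol, and stood at 19.2 and 16.5 CPM for Mx, 26.0 and 23.8 for Flt3ITD and 51.2 and 29.9 for NPMc_Flt3ITD. Its 3 groups did not overlap and were ordered Mx, Flt3ITD, NPMc_Flt3ITD, the replicates of the last lying far apart. The NPMc_Flt3ITD mean was 2.27 times that of Mx (log2 fold change 1.09, 0.43 to 1.76, adjusted p = 0.143, 0.0238 with the replicate block and 0.0164 by DESeq2), and the contrast with Flt3ITD was 0.63 (-0.03 to 1.30, adjusted p = 0.287).

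Among the enzymes that convert lanosterol to cholesterol, Ebp was the most separated. Ebp encodes the sterol isomerase that shifts the double bond of the ring and lies on the X chromosome. It stood at 35.7 and 36.7 CPM in the Mx pair, 62.7 and 57.1 in the Flt3ITD pair and 51.9 and 58.6 in the NPMc_Flt3ITD pair. The Mx replicates were nearly equal and all 4 mutant libraries were above them, with log2 fold changes of 0.71 (0.29 to 1.13) in Flt3ITD and 0.60 (0.17 to 1.02) in NPMc_Flt3ITD. The adjusted p values were 0.0658 and 0.213, that of Flt3ITD being 0.0167 with the replicate block and 0.0122 by DESeq2. Xist, made from the inactive X chromosome of female cells, was at 1007 and 1038 CPM in Mx libraries, 37.2 and 547 in Flt3ITD libraries and 259 and 625 in NPMc_Flt3ITD libraries, and its part in the Ebp values was not tested. Nsdhl, a sterol dehydrogenase that is also X-linked, read 32.1 and 24.5 CPM for Mx, 40.7 and 37.2 for Flt3ITD and 38.9 and 29.0 for NPMc_Flt3ITD, so that only Flt3ITD lay clear of Mx. Hsd17b7, the keto reductase of the same demethylation complex, stood at 9.11 and 9.89 CPM in the Mx pair, 13.6 and 11.1 in the Flt3ITD pair and 13.02 and 11.3 in the NPMc_Flt3ITD pair. Its mutant libraries were all slightly above Mx. Dhcr7, which reduces the last double bond to give cholesterol, stood at 63.8 and 61.6 CPM in Mx libraries, 80.0 and 57.9 in Flt3ITD libraries and 77.8 and 72.3 in NPMc_Flt3ITD libraries, overlapping Mx in Flt3ITD only.

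Cyp51, Tm7sf2 and Sc5d had negative fold changes in Flt3ITD against Mx, and none passed. Cyp51, the lanosterol demethylase, read 55.1 and 51.8 CPM for Mx, 57.2 and 40.9 for Flt3ITD and 76.3 and 54.4 for NPMc_Flt3ITD, overlapping in every comparison. Tm7sf2, a sterol reductase, was at 7.31 and 5.75 CPM in the Mx pair, 7.02 and 4.94 in the Flt3ITD pair and 7.67 and 9.48 in the NPMc_Flt3ITD pair, so that NPMc_Flt3ITD lay above both other groups (0.35 against Mx, -0.45 to 1.15, adjusted p = 0.779). The overlapping gene Vps51 holds 9.87% of the 50-base stretches of Tm7sf2. Sc5d, the sterol desaturase before Dhcr7, stood at 45.4 and 32.1 CPM in Mx libraries, 27.0 and 29.7 in Flt3ITD libraries and 33.3 and 29.1 in NPMc_Flt3ITD libraries. It was the sterol enzyme with the lowest fold change in both comparisons against Mx, -0.42 (-0.97 to 0.13, adjusted p = 0.322) and -0.29 (-0.84 to 0.26, adjusted p = 0.719).

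**Figure D3:**
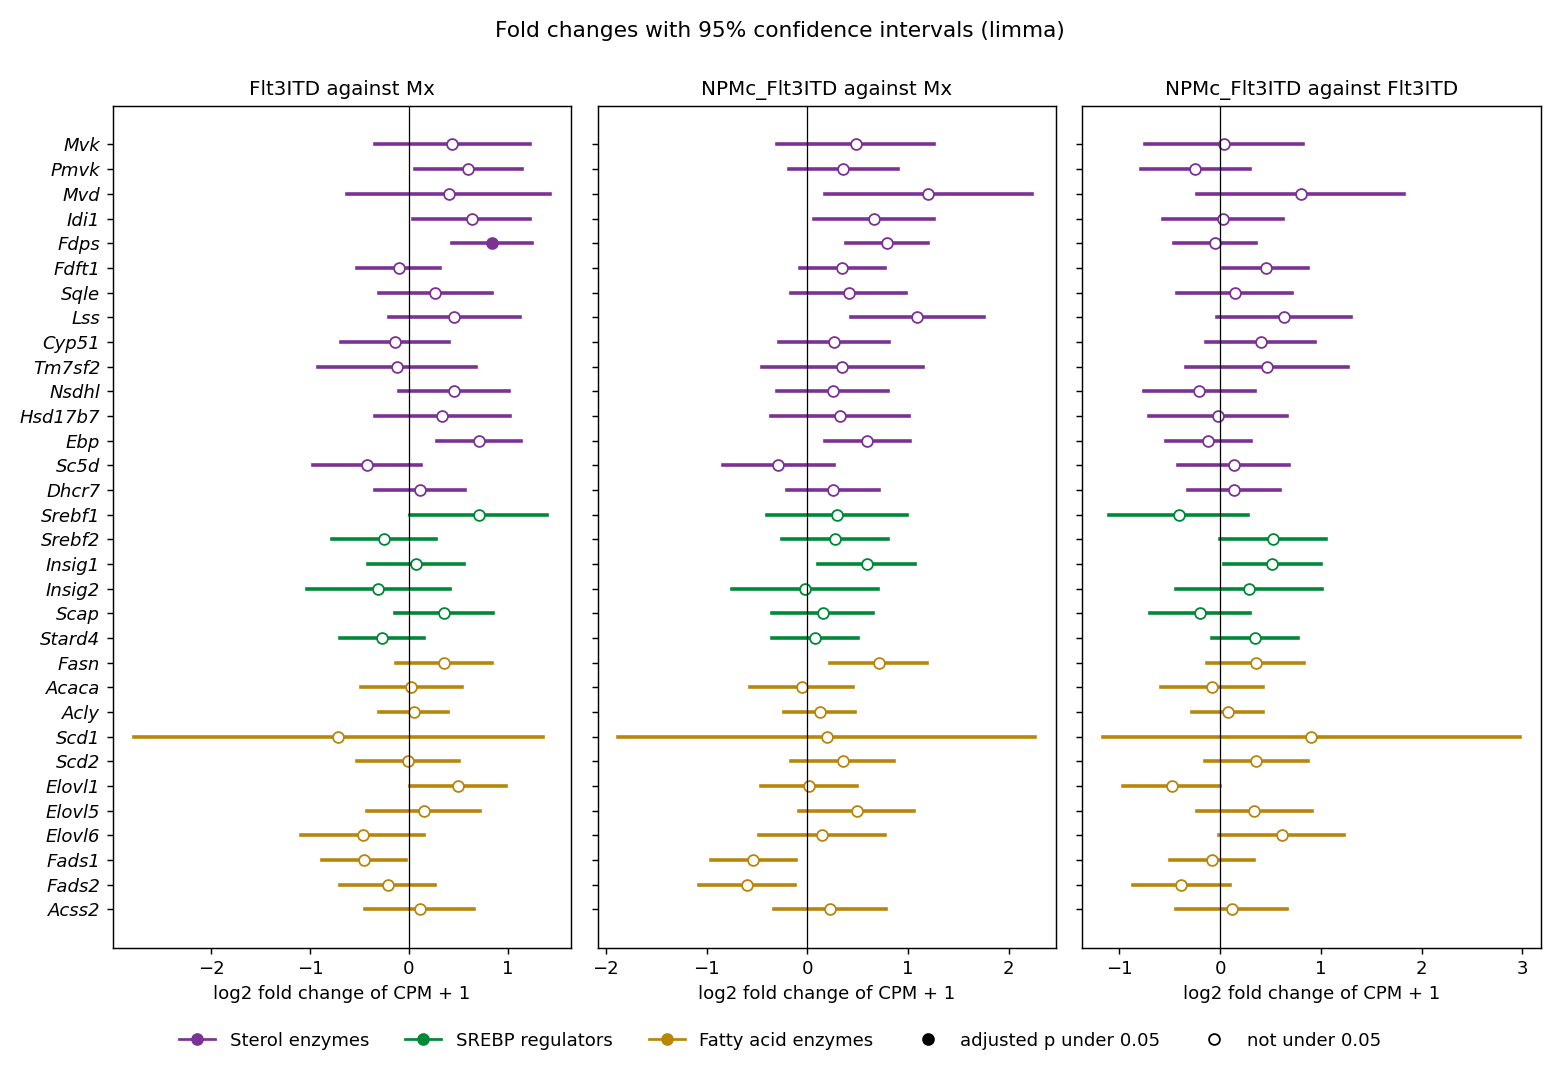
log2 fold change of CPM + 1 for each gene in the 3 comparisons, with 95% confidence intervals from limma. The filled point is Fdps in Flt3ITD against Mx, at 0.84, and every other point is open because its adjusted p was not under 0.05.

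Counted over the branch, 8 of 15 sterol enzymes were higher in both Flt3ITD libraries than in both Mx libraries and 2 were lower, against 26.6% and 27.3% of all tested genes. In NPMc_Flt3ITD 12 of 15 were higher and 0 lower, against 20.4% and 22.1%. Between the mutant groups 4 were higher and 1 lower in NPMc_Flt3ITD, against 24.4% and 23.8%. The fold change was above 0 for 11, 14 and 10 of the 15 in these comparisons, as it was for 50.3%, 51.1% and 52.1% of tested genes. Library totals include the ribosomal RNA Rn45s. It held 25.1% and 15.7% of the reads in Mx libraries, 21.3% and 18.7% in Flt3ITD libraries and 22.8% and 21.7% in NPMc_Flt3ITD libraries. With values rescaled to library totals, the median of all genes moved to -0.10 and -0.11 in the comparisons against Mx, and the sterol medians were 0.30 and 0.23. The counts of enzymes higher were then 6 and 9 of 15, against 19.7% and 12.8% of tested genes, as Mvk and Hsd17b7 overlapped Mx in both mutant groups and Dhcr7 in NPMc_Flt3ITD, where Sc5d became lower. Leaving out single libraries moved the sterol median between 0.20 and 0.52 in Flt3ITD and between 0.31 and 0.51 in NPMc_Flt3ITD against Mx, and between -0.09 (without Flt3ITD replicate 2) and 0.23 between the mutant groups.

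The summed level of the 15 sterol enzymes was 559 and 481 CPM for Mx, 722 and 612 for Flt3ITD and 767 and 680 for NPMc_Flt3ITD. Every mutant library was above both Mx libraries, and the group means were 1.28 and 1.39 times that of Mx. Beside this, the summed G2/M markers were 731 and 850 CPM in the Mx pair, 1677 and 1400 in the Flt3ITD pair and 704 and 708 in the NPMc_Flt3ITD pair. The summed erythroid markers were 341 and 264 CPM in Mx libraries, 2271 and 2157 in Flt3ITD libraries and 307 and 154 in NPMc_Flt3ITD libraries, with Slc4a1 at 0 in at least 1 library. Members of other marker lists were lower in both mutant groups. Of the 13 genes of the LT-HSC list 11 were lower without overlap in Flt3ITD and 10 in NPMc_Flt3ITD than in Mx. Among all tested genes 27.3% and 22.1% were lower in this way, shares that apply to the B and plasma cell markers below too. As lower, 6 and 4 of the 13 passed the test. Cd34 alone was higher without overlap in both, and the median log2 fold changes of the list were -1.43 and -1.08. Of 11 tested B and plasma cell markers 8 and 7 were lower, with medians of -1.84 and -2.39, 4 and 2 of them passing the test, while their summed level overlapped between groups at 249 and 545 CPM for Mx, 206 and 411 for Flt3ITD and 199.7 and 540.4 for NPMc_Flt3ITD. The part of these lists in the sterol values was not tested, and in bulk RNA more cells of a type cannot be told apart from more RNA per cell.

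**Figure D4:**
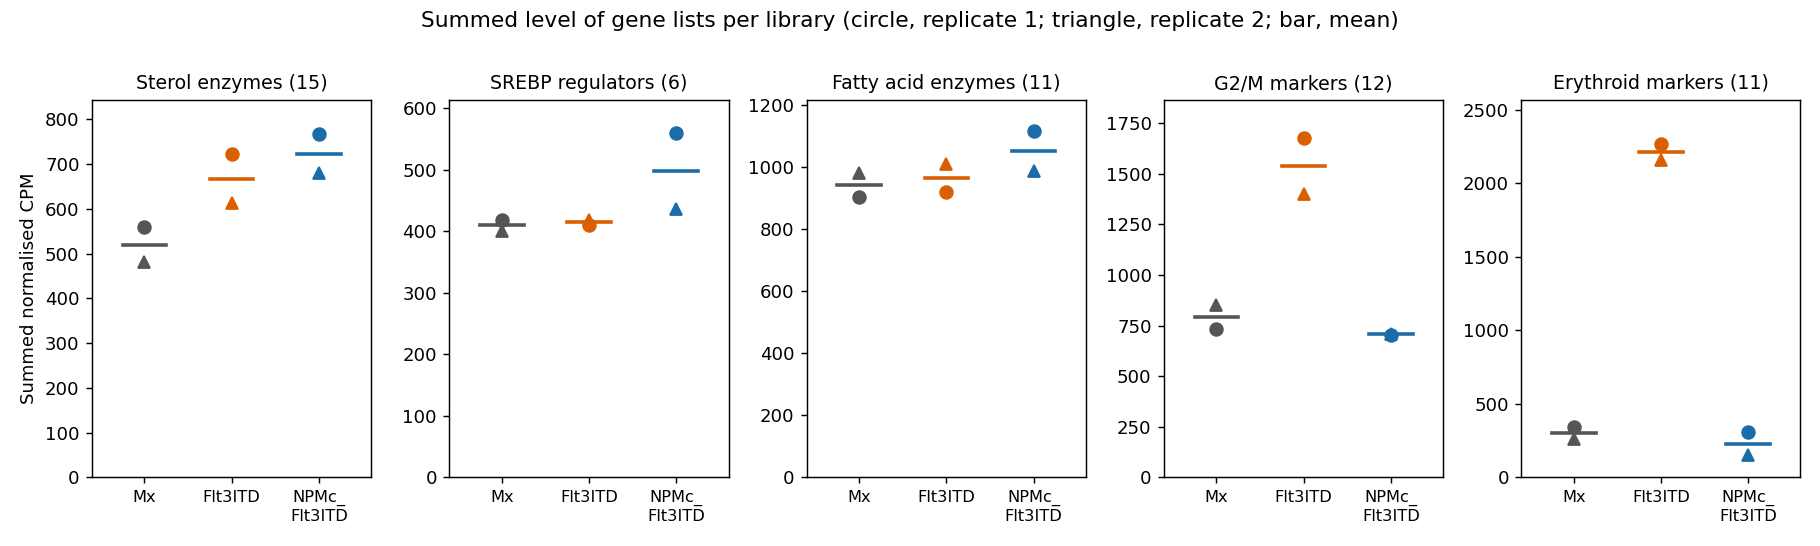
Summed normalised CPM of each gene list per library, with the number of genes in brackets, circles for replicate 1, triangles for replicate 2 and bars for the mean of 2 libraries. The sterol sum is above Mx in all 4 mutant libraries, and the G2/M and erythroid sums are high in Flt3ITD only.

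The regulators gave no call in any comparison and no common direction: against Mx, Srebf1 and Scap were higher and Srebf2 and Stard4 lower in both Flt3ITD libraries, and Insig1 alone was separated, as higher, in NPMc_Flt3ITD. These 2 higher and 2 lower of 6, and 1 higher of 6, stand beside 26.6%, 27.3% and 20.4% of tested genes, and on library totals Insig1 overlapped Mx, leaving 0 of 6 in NPMc_Flt3ITD. Srebf2, which encodes the main SREBP of sterol genes, stood at 159 and 146 CPM for Mx, 113 and 144 for Flt3ITD and 230.4 and 148 for NPMc_Flt3ITD. Its Flt3ITD libraries were below Mx, and the NPMc_Flt3ITD mean was set by replicate 1, so that the contrast between the mutant groups was 0.53 (0.00 to 1.05, adjusted p = 0.264). Srebf1 read 75.7 and 38.7 CPM in the Mx pair, 93.0 and 85.4 in the Flt3ITD pair and 78.6 and 56.7 in the NPMc_Flt3ITD pair. Flt3ITD lay above both other groups, with a fold change of 0.71 against Mx (0.02 to 1.40, adjusted p = 0.203, 0.0282 with the replicate block), but the Mx replicates themselves lay far apart. Leaving out Mx replicate 1 or 2 gave 1.18 or 0.23.

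Insig1, a sterol sensor and itself an SREBP target, stood at 53.5 and 77.1 CPM in Mx libraries, 65.5 and 69.7 in Flt3ITD libraries and 105 and 90.2 in NPMc_Flt3ITD libraries. The NPMc_Flt3ITD libraries lay above the other 4, though on library totals the lower of them (84.3 CPM) fell just under Mx replicate 2 (84.8 CPM), with fold changes of 0.59 against Mx (SE 0.21, adjusted p = 0.281) and 0.52 against Flt3ITD (SE 0.21, adjusted p = 0.234). Its paralogue Insig2 read 17.4 and 26.0 CPM for Mx, 21.01 and 13.8 for Flt3ITD and 23.5 and 18.7 for NPMc_Flt3ITD, overlapping in all comparisons. Scap, the escort protein, was at 38.9 and 37.0 CPM in the Mx pair, 49.9 and 47.6 in the Flt3ITD pair and 35.7 and 49.9 in the NPMc_Flt3ITD pair, with NPMc_Flt3ITD spanning both other groups. Stard4, a carrier that moves cholesterol between membranes, stood at 73.8 and 76.5 CPM in Mx libraries, 68.3 and 56.5 in Flt3ITD libraries and 86.9 and 72.4 in NPMc_Flt3ITD libraries, and was lower in both Flt3ITD libraries than in all others. The summed level of the 6 regulators was 419 and 401 CPM for Mx, 411 and 417 for Flt3ITD and 560 and 436 for NPMc_Flt3ITD, the last pair being the more uneven.

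Fatty acid enzymes had no common direction, and none passed the test in any comparison. Acly, which splits citrate to give cytosolic acetyl-CoA, was the steadiest of the 32 genes, at 183 and 185 CPM in the Mx pair, 191 and 189 in the Flt3ITD pair and 212 and 189 in the NPMc_Flt3ITD pair. Its highest library was 1.16 times its lowest, and the small positive fold changes against Mx (0.05 and 0.12) became -0.07 and -0.01 on library totals. Acss2, which makes acetyl-CoA from acetate, read 56.1 and 58.2 CPM in Mx libraries, 69.7 and 54.7 in Flt3ITD libraries and 83.9 and 53.4 in NPMc_Flt3ITD libraries, high in the first replicate of each mutant group only. Acaca, the acetyl-CoA carboxylase that commits carbon to fatty acids, was at 37.4 and 32.7 CPM for Mx, 36.2 and 35.1 for Flt3ITD and 38.7 and 29.3 for NPMc_Flt3ITD. No group stood apart for Acaca, and 30.4% of its 50-base stretches recur in 202 other genes, so its level is uncertain.

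Fasn, the synthase that builds palmitate, was the fatty acid enzyme with the largest fold change in NPMc_Flt3ITD against Mx. It stood at 63.3 and 47.7 CPM in the Mx pair, 66.6 and 74.8 in the Flt3ITD pair and 102 and 79.8 in the NPMc_Flt3ITD pair. The 3 groups did not overlap and were ordered as for Lss. The fold change was 0.36 (-0.13 to 0.84, adjusted p = 0.340) in Flt3ITD and 0.71 (0.23 to 1.19, adjusted p = 0.190, 0.0396 with the replicate block) in NPMc_Flt3ITD, where the mean was 1.64 times that of Mx.

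None of the 4 desaturases passed the test. Fads1 and Fads2, neighbouring genes for the front-end desaturases of polyunsaturated fatty acids, were lower in all 4 mutant libraries. Fads1 read 103 and 116 CPM in Mx libraries, 84.6 and 74.7 in Flt3ITD libraries and 83.7 and 67.3 in NPMc_Flt3ITD libraries, with fold changes of -0.45 (-0.87 to -0.03, adjusted p = 0.184) and -0.53 (-0.95 to -0.11, adjusted p = 0.263) against Mx. Fads2 read 40.7 and 50.2 CPM for Mx, 38.7 and 39.1 for Flt3ITD and 31.5 and 27.7 for NPMc_Flt3ITD, with fold changes of -0.21 (-0.69 to 0.27, adjusted p = 0.577) and -0.60 (-1.08 to -0.12, adjusted p = 0.273). For Fads2 the 3 groups did not overlap and were ordered opposite to Fasn. These 2 were the only members lower in both mutant groups without overlap, and on library totals Sc5d was too. Of all tested genes 27.3% were lower in Flt3ITD and 22.1% in NPMc_Flt3ITD, or 33.4% and 31% on library totals. The share lower in both mutant groups at once was not counted. Scd2, a stearoyl-CoA desaturase that makes monounsaturated fatty acids, stood at 204 and 252 CPM in the Mx pair, 182 and 279 in the Flt3ITD pair and 303 and 277 in the NPMc_Flt3ITD pair, above Mx in NPMc_Flt3ITD only. Scd1, its close relative that dominates in liver and fat, was low and split by replicate number rather than by group, with 1.39 and 6.36 CPM in Mx libraries, 0.0657 and 5.13 in Flt3ITD libraries and 1.61 and 7.80 in NPMc_Flt3ITD libraries. The value in Flt3ITD replicate 1 is 1 read, under the 3 reads (0.197 CPM) taken as the floor of that library, and replicate 2 was the higher library in each group.

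Elongases add carbon to fatty acids, each on its own substrates. Elovl1, for saturated very long chains, stood at 105 and 77.6 CPM for Mx, 147 and 112 for Flt3ITD and 96.3 and 86.7 for NPMc_Flt3ITD. Flt3ITD lay above both other groups, with fold changes of 0.50 against Mx (0.02 to 0.98, adjusted p = 0.198, 0.0317 with the replicate block) and -0.48 for NPMc_Flt3ITD against Flt3ITD (-0.96 to 0.00, adjusted p = 0.265, 0.0485 with the replicate block). Elovl6, which extends palmitate, read 49.9 and 57.0 CPM in the Mx pair, 28.4 and 51.8 in the Flt3ITD pair and 59.9 and 58.4 in the NPMc_Flt3ITD pair, its low value coming from 1 Flt3ITD library. Elovl5, for polyunsaturated chains, read 58.8 and 97.9 CPM in Mx libraries, 74.7 and 95.4 in Flt3ITD libraries and 102 and 112 in NPMc_Flt3ITD libraries, the last pair being above all other libraries.

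Summed over the 11 fatty acid enzymes the level was 902 and 980 CPM for Mx, 919 and 1010.1 for Flt3ITD and 1115 and 988 for NPMc_Flt3ITD, and the group means were 1.02 and 1.12 times that of Mx. Without overlap, 3 were higher and 2 lower in Flt3ITD than in Mx, 5 higher and 2 lower in NPMc_Flt3ITD than in Mx, and 3 higher and 2 lower in NPMc_Flt3ITD than in Flt3ITD. The shares among all tested genes given above for the sterol enzymes apply here too, and on library totals the 5 in NPMc_Flt3ITD against Mx became 1 of 11 (Fasn), against 12.8% of tested genes. On library totals the branch medians of 0.03 and 0.15 became -0.09 and 0.02, so the first changes sign with the scaling.

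Per kilobase of the longest coding transcript, the relatives within each family kept their order in every library. Scd2 stood at 33.4 to 55.5 CPM per kb and Scd1 at 0.0136 to 1.61. Srebf2 stood at 22.3 to 45.4 CPM per kb and Srebf1 at 9.01 to 21.6, and the closest values of the pair within a group were those of Flt3ITD. Insig1 was at 19.8 to 38.8 CPM per kb and Insig2 at 5.10 to 9.64. Fads1 was at 19.4 to 33.6 and Fads2 at 8.80 to 15.9 CPM per kb. The elongases were ordered Elovl1, Elovl5, Elovl6 in every library, with Elovl6 at 4.77 to 10.1 CPM per kb. Of all 32 genes, Elovl1 had the highest mean per kb in Mx (50.4), followed by Fdps (42.9), Scd2 (41.8) and Acly (41.5), and Scd1 the lowest (0.802). In Flt3ITD and NPMc_Flt3ITD Fdps was the highest, at 77.6 and 75.0 CPM per kb.

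**Figure D5:**
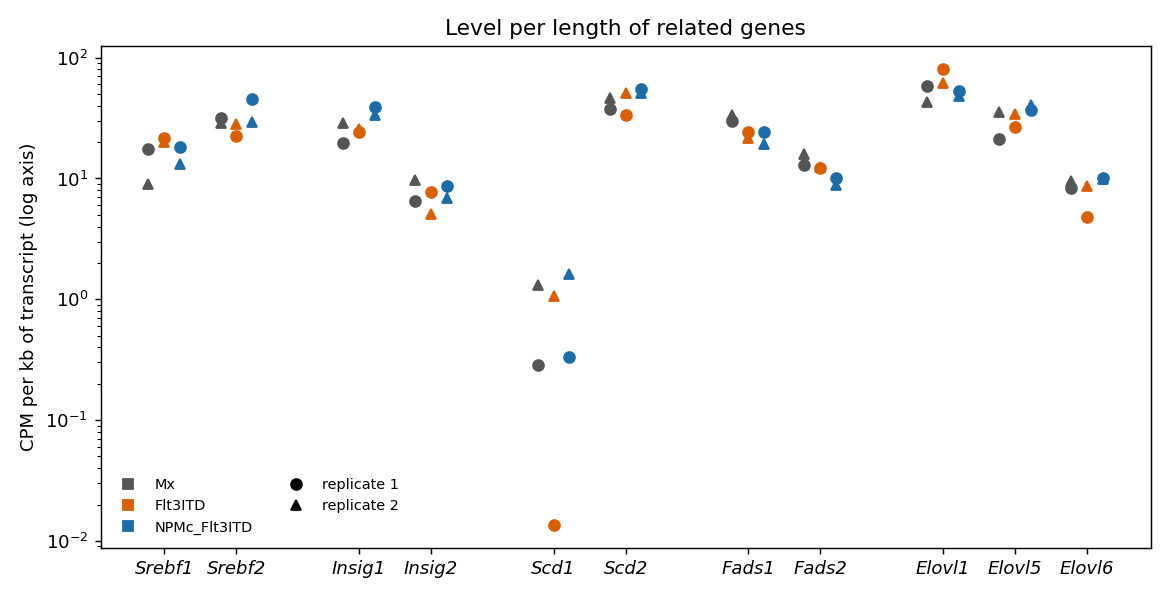
CPM per kb of the longest coding transcript (log axis) for related genes, with groups by colour and replicates by shape. In each family the relatives keep their order in every library, with Scd1 the lowest gene shown.

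A part of the variation followed the replicate number. Replicate 1 was higher than replicate 2 in all 3 groups for 7 of the 15 sterol enzymes (Mvk, Idi1, Sqle, Lss, Cyp51, Nsdhl and Dhcr7), against 20.8% of tested genes, and for Srebf1, Acaca and Elovl1. The reverse held for Fdps, Scd1 and Elovl5, against 21.2%. The summed immediate early genes, which respond to handling and stress, also had replicate 1 above replicate 2 in each group, at 13698 and 5531 CPM in the Mx pair, 8459 and 4678 in the Flt3ITD pair and 15225 and 7884 in the NPMc_Flt3ITD pair. Their part in the sterol values was not tested.

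Lists of neighbouring lipid pathways gave few calls. None of 15 tested genes of other sterol and isoprenoid steps passed in any comparison, and none of 13 genes of further SREBP control did. At an unadjusted limma p under 0.05 the first list gave 1 higher and 1 lower in each comparison against Mx. Between the mutant groups it gave 1 higher and 3 lower. The second list gave 0 higher and 2 lower, 1 and 1, and 3 and 0 in the 3 comparisons. Median log2 fold changes of the first list were 0.27 in Flt3ITD against Mx, -0.04 in NPMc_Flt3ITD against Mx and -0.29 between the mutant groups. Those of the second were -0.03, 0.08 and 0.11. Of 13 genes of sterol efflux and storage Nceh1 alone passed, a hydrolase that frees cholesterol from its stored esters. Nceh1 stood at 157 and 162 CPM in Mx libraries, 60.8 and 64.4 in Flt3ITD libraries and 74.4 and 74.4 in NPMc_Flt3ITD libraries. It fell in both mutant groups against Mx, by 1.34 (adjusted p = 0.00792) and by 1.09 (adjusted p = 0.0161) on the log2 scale, a larger change than that of Fdps. The median of this list was -0.66 in Flt3ITD against Mx and 0.09 in NPMc_Flt3ITD against Mx.

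Of 16 tested genes of other fatty acid synthesis, Ptplad2, a dehydratase of chain elongation, fell in Flt3ITD against Mx, from 84.0 and 85.8 CPM to 28.8 and 34.3, with 61.3 and 56.6 in NPMc_Flt3ITD (log2 fold change -1.40, adjusted p = 0.0110). Acsl5, which activates long-chain fatty acids, was the only one of 22 genes of glycerolipid synthesis to pass. It stood at 201 and 158 CPM for Mx, 394 and 307 for Flt3ITD and 170 and 151 for NPMc_Flt3ITD, rising in Flt3ITD against Mx (0.96, adjusted p = 0.0366) and falling in NPMc_Flt3ITD against Flt3ITD (-1.11, adjusted p = 0.0386). Its pattern, high in Flt3ITD only, was that of the G2/M and erythroid sums, whose part was not tested.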

How the data were processed

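The deposited signal values are normalised CPM that the authors made with edgeR, per the file headers, for genes above 0 in at least 1 library. The submitters' processing notes name, without roles, mm9, CASAVA 1.8 and TopHat2 2.1.0, then edgeR 3.20.7, HTSeq 0.6.1p1, Bowtie2 2.2.4 and SAMtools 0.1.18. Neither the annotation, the strand setting, the treatment of multi-mapping reads nor the markers of the sort is given in the sources used here. RNA of sorted cells was amplified by SMART-seq from polyadenylated RNA, per the labels' protocols. All 107982 values were whole multiples of 1 read within 0.01 reads, so reads were recovered. Without molecular identifiers reads are not independent molecules, and the floor of 3 reads covers counting error only.

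limma 3.58.1 with trend (R 4.3.3) was fitted to log2(CPM + 1) of all 6 libraries, with group as its term, over 12657 genes with at least 1 CPM in 2 libraries (5340 removed). Benjamini-Hochberg adjustment ran over all of them and calls needed an adjusted p under 0.05. The fit had 3 residual degrees of freedom, 8.67 after moderation. Alternatives were pseudocounts of 0.25 and 4, no filter, 5 CPM, library totals, median-of-ratios factors, edgeR 4.0.16 and DESeq2 1.42.0 on recovered reads, a replicate block, only the groups compared, and each library left out, where a lone library is assumed to vary like the other groups. The code was tested on simulated data. Every member is named, and of the other pathway lists the genes that were called, apart from a result that is not reported here. Members and lists were chosen with earlier results of these data known. The counts of separated groups on library totals and the comparison of replicate numbers were added after the values were seen.

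Deviations of same-numbered libraries from their group means correlated at 0.259 to 0.341 across genes between groups, and principal component 3 (18.8% of the variance) separated the numbers. This pairing comes from the values, since no label explains the numbers. Transcript lengths and shared 50-base stretches came from GENCODE and promoters from RefSeq, both GRCm38, and no coordinates were joined to the authors' mm9 values.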

Additional observations from a re-analysis of the deposited data

Results flagged for a closer look

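Fdft1, squalene synthase, differed in direction from Mx between the mutant groups, with neither difference from Mx passing (log2 fold change -0.10, adjusted p = 0.780 in Flt3ITD and 0.35, adjusted p = 0.524 in NPMc_Flt3ITD): both Flt3ITD libraries were below both Mx libraries and both NPMc_Flt3ITD libraries above them. The test of the difference itself, NPMc_Flt3ITD against Flt3ITD, gave a log2 fold change of 0.45 (limma, 95% confidence interval 0.03 to 0.87), which did not pass with an adjusted p of 0.236 and an unadjusted p of 0.0390. Pseudogene sequence shares 9.38% of the 50-base stretches of Fdft1.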

How the results depend on the processing

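Of 1536 values for the 32 genes (96 results under 16 settings) 1514 kept their side of the threshold, while 12 passed only under an alternative (the replicate block or DESeq2) and 10 were Fdps in Flt3ITD against Mx losing its call. That Fdps result was the only 1 called as reported. Nearly all other values kept their side by staying uncalled, which does not show that the results are firm. In Flt3ITD against Mx the members called, 1 as reported, were 0 without a filter, on library totals, with edgeR and with only the groups compared, 2 with DESeq2, 5 with the replicate block and 0 to 0 when 1 library was left out. In NPMc_Flt3ITD against Mx they were 0 as reported, 2 with DESeq2 and 4 with the replicate block, and between the mutant groups 0 as reported and 1 with the replicate block. The genes called over all tested in Flt3ITD against Mx were 576, and 0 without a filter (3285 at an unadjusted p under 0.05), 283 with edgeR, 1489 with DESeq2, 2341 with the replicate block, 337 with only the groups compared and 0 to 316 when 1 library was left out, the 0 arising on removal of Mx replicate 1, with 2053 at an unadjusted p under 0.05. In NPMc_Flt3ITD against Mx they were 148, and 27 without a filter, 550 with DESeq2, 689 with the replicate block and 20 to 169 without 1 library. Between the mutant groups they were 149, and 0 without a filter (2586 at an unadjusted p under 0.05), 93 with edgeR, 1017 with DESeq2, 1513 with the replicate block and 24 to 108 without 1 library. Library totals moved the share of higher genes among those called from 46.5% to 28.9% in Flt3ITD against Mx and from 43.9% to 33.0% in NPMc_Flt3ITD against Mx. The sign changed under at least 1 setting for 12, 10 and 14 of the 32 genes in the 3 comparisons. Every alternative gave a value, and the cause of the lost calls was not tested.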
